A study of Drosophila melanogaster with 4 samples.

Results

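A 36 kb window on chromosome arm 3L of *Drosophila melanogaster*, chosen for the small heat shock gene cluster, held 17 ChIP-seq peaks of the nuclear receptor Usp. The samples were wandering larvae of the third instar. The peaks were chosen by position alone: a midpoint from 9360000 to 9396000 on 3L, in the FlyBase release 5 coordinates of the deposited list. They are 17 of 814 peaks on the arm (2.09%) and of 3053 in the list. They formed a run in which the 3 highest scores lay within 7.50 kb of each other. Its median score was 11.2, against 12.2 for the other peaks of the arm. Its peaks lay a median of 655 bp from their nearest neighbour, against 518 bp for those others. The window was picked with results of these data known, and its peaks came from the same ChIP-against-input call as every value given here. The values are therefore a description, with no test.

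The study compared 2 ChIP libraries, made with a rabbit polyclonal antibody to GFP (ab290), with 2 input libraries of unprecipitated DNA. All 4 libraries, inputs included, came from the strain USP-GFP at stage L3. This line carries the *usp* genomic coding region as a transgene in the genotype PBac{y[+]-attP-3B}VK00033, and its sex is unknown. The larvae were raised at 25 °C with no heat shock named, and were fixed in 1.8% formaldehyde for 15 min. In the protocol the flies are called y; bw cn sp, not the tagged line. The labels do not say whether the replicates were separate cultures or whether untagged Usp was present. The signal is that of the tagged protein in whole larvae, so the cell types behind a peak are not known. There was 1 peak list for the 4 libraries, which gives each peak a start, an end and a score. It holds no value per library, so no peak has a replicate spread, and depth per library is unknown.

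Usp (Ultraspiracle) is the retinoid X receptor of flies. It pairs with the ecdysone receptor EcR, and the pair binds DNA and switches genes on in response to the steroid 20-hydroxyecdysone, whose pulses drive the change from larva to pupa. Small heat shock proteins are chaperones that need no ATP and hold unfolding proteins in a soluble state. Most share an alpha-crystallin domain. In flies several of these genes are turned on not only by heat but also by ecdysone at the end of larval life. The DNA element upstream of *Hsp27* is a classical binding site of the EcR/Usp pair, and *Hsp23* also has ecdysone response elements.

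All 7 genes of the cluster were found in the RefSeq gene table, 6 by symbol and *Hsp67Bb* by synonym, under the symbol CG4456. That table follows Release 6 of the genome and was used only for names and gene order. Along 3L the order was *Hsp67Bc*, *Hsp67Bb*, *Hsp22*, CG4461, *Hsp26*, *Hsp67Ba*, the antisense RNA gene asRNA:CR43481, *Hsp23* and *Hsp27*, with *Fdx1* before them and the pseudogene CR43483 after. *Hsp22* encodes a chaperone of the mitochondrial matrix, *Hsp23* and *Hsp26* encode cytosolic chaperones, and *Hsp27* encodes a mainly nuclear one. *Hsp67Bc* acts in protein quality control with the co-chaperone Starvin. *Hsp67Ba* encodes a longer protein of the family, while *Hsp67Bb* encodes a rhodanese-like protein and not a typical small heat shock protein. Release 5 gene positions were not used here, so no peak below is assigned to any of these genes, and the tie of the window to the cluster is that of the rule.

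The 17 peaks ran from 9365881 to 9393932, a span of 28.1 kb, and covered 8.30 kb or 29.6% of it. They are numbered 1 to 17 along the arm. Gaps of over 3 kb split them into 3 groups, a division made after the positions were seen. Peaks 1 to 10 took up 12.2 kb and covered 45.8% of it, peaks 11 to 13 took up 3.04 kb and covered 27.6%, and peaks 14 to 17 took up 5.15 kb and covered 36.6%. The first group held the 3 strongest peaks, with a median score of 13.3 and a highest of 40.8. In the second group no peak scored above 11.2 or was wider than 312 bp. The third had a median score of 12.7 and a highest of 16.8.

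**Figure D1:**
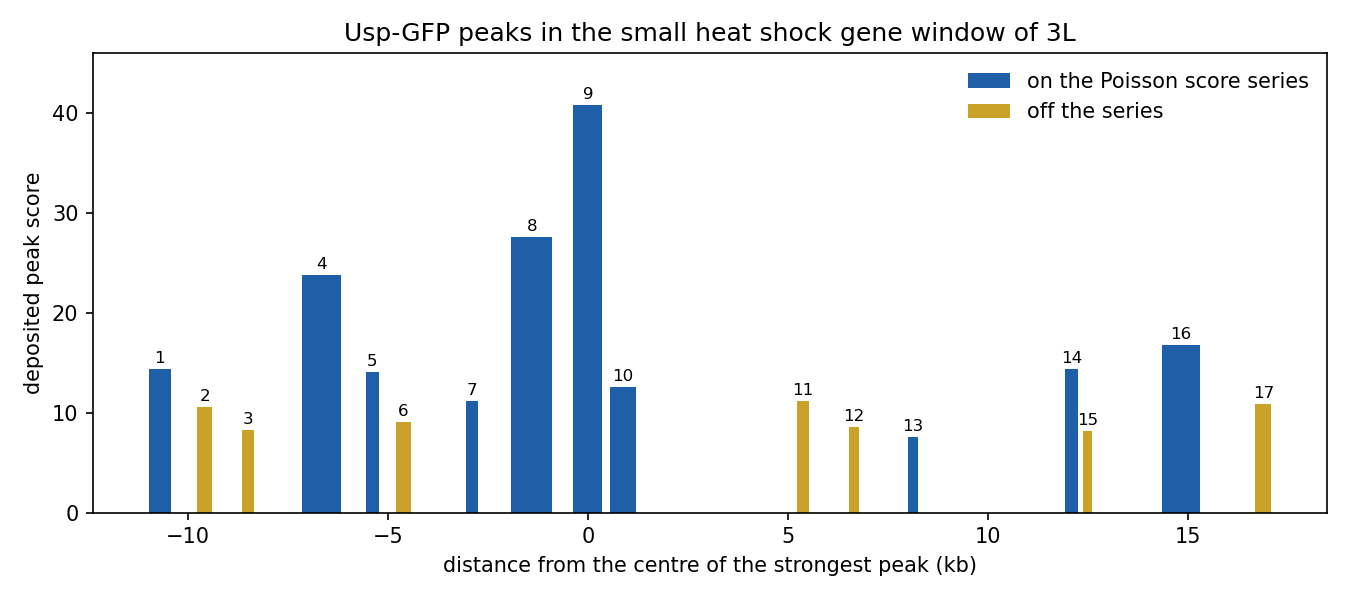
Each bar is 1 of the 17 peaks, drawn from its first to its last base, with the distance from the centre of the strongest peak in kb on the horizontal axis and the deposited score on the vertical axis. Colours part the 10 peaks whose score matches a whole-number pileup over the genome-wide background from the other 7. Peaks 8 and 9 stand together at scores of 27.6 and 40.8, and gaps of 4031 and 3675 bp set peaks 11 to 13 apart from both sides.

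The deposited score has no stated scale. Its most repeated values matched −log10 of a Poisson tail, taken at whole numbers of fragments with a background of 43.9 fragments, with a mean distance of 0.00309 over 52 values. Where a score lay within 0.01 of that series, the pileup and its fold over the background were read from it, with its exact 95% Poisson interval, which covers only counting error. Of the 17 peaks, 10 lay on the series (58.8%, exact binomial 95% interval 32.9 to 81.6%), against 74.3% of the other 797 peaks of 3L. The interval holds the share of the other peaks. For the 7 off the series, peaks 2, 3, 6, 11, 12, 15 and 17, only the score is given. Such a peak may have been scored against a higher local background, which was not tested.

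The strongest peak of the window was peak 9, from 9376486 to 9377209, which was 724 bp wide and scored 40.8. Its implied pileup was 160 fragments, or 3.65 times the background (3.10 to 4.26). It ranked 27 among the 814 peaks of the arm by score and 104 by width. Its neighbour on the lower side, peak 8, from 9374935 to 9375955, was the widest of the window at 1021 bp. It scored 27.6, with a pileup of 135 or 3.08 times the background (2.58 to 3.64). The edges of peaks 8 and 9 were 530 bp apart. On the other side of peak 9, after 183 bp, lay peak 10, from 9377393 to 9378037, which was 645 bp wide but scored only 12.6 (2.28 times, 1.85 to 2.77). The folds of peaks 9 and 8 had overlapping intervals, while those of peaks 9 and 10 did not overlap.

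The third highest score belonged to peak 4, from 9369713 to 9370680, which was 968 bp wide, scored 23.8 and stood at 2.89 times the background (2.41 to 3.44). The fourth was peak 16, near the far end of the run from 9391210 to 9392138, which was 929 bp wide and scored 16.8 (2.53 times, 2.08 to 3.05). These peaks and peaks 8 and 9 were at once the 4 widest and the 4 highest scoring of the window, and they made up 43.9% of the sequence covered. The other 13 were 229 to 645 bp wide, with a median of 312 bp.

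Below these, the folds of the remaining 6 peaks on the series lay close together, from 1.94 to 2.39. Peaks 1 (9365881 to 9366416) and 14 (9388784 to 9389109) had the same score of 14.4 and the same fold, 2.39 (1.96 to 2.90), although peak 1 was 536 bp wide and peak 14 was 326 bp. Peak 5, from 9371304 to 9371613, scored 14.0 (2.37 times, 1.94 to 2.87). Peak 7, from 9373803 to 9374103, scored 11.1 (2.19 times, 1.77 to 2.67). The lowest score of the window, 7.60, was that of peak 13, from 9384851 to 9385108, at 1.94 times the background (1.55 to 2.39). In the order of folds, no 2 neighbours had intervals that did not overlap. The interval of peak 9 was clear of 7 of the other 9, all except peaks 8 and 4, and that of peak 13 was clear of peaks 4, 8 and 9. Peaks 9 and 13 had the highest and lowest of these folds, and each fold was read from the score. These separations therefore restate the order of scores and are no test that peaks differ. The same overlaps were not counted for the other peaks of 3L.

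**Figure D2:**
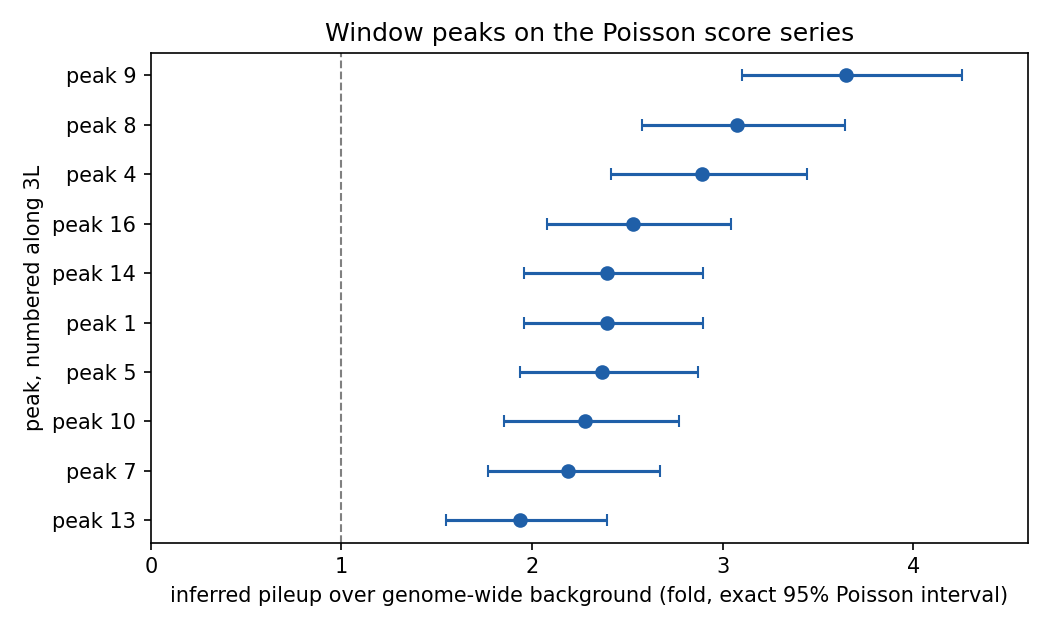
The horizontal axis is the inferred pileup over the genome-wide background, as a fold, for the 10 peaks on the score series, and the vertical axis names the peaks in order of fold. Points are the folds, bars are exact 95% Poisson intervals, and the dashed line marks the background. The folds run from 1.94 at peak 13 to 3.65 at peak 9, and the intervals of neighbours in this order overlap.

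The 7 peaks off the series had low scores. They were peaks 11 (9382069 to 9382380, score 11.2), 17 (9393531 to 9393932, 10.9), 2 (9367072 to 9367462, 10.6), 6 (9372043 to 9372425, 9.09), 12 (9383367 to 9383636, 8.61), 3 (9368213 to 9368503, 8.27) and 15 (9389220 to 9389448, 8.19). All 7 scored below the median of the other peaks of the arm. That share was not counted for the 205 other peaks of 3L off the series, so it is not shown to be particular to the run. Peak 15, the narrowest of the window at 229 bp, lay within 0.015 of the series, and the other 6 did not.

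Most neighbouring peaks of the run lay within 2 kb of each other. The 16 gaps between neighbouring peaks had a median of 908.5 bp and ranged from 110 bp, between peaks 14 and 15, to 4031 bp, between peaks 10 and 11. Of these gaps 9 were under 1 kb, 5 were from 1 to 2 kb and 2 were over 3 kb. The other 797 gaps on 3L, which include those that bound the run, had a median of 1269 bp. Their interquartile range was 352 to 11483 bp, against 599.75 to 1380.75 bp in the run. Gaps inside a 36 kb window that holds 17 peaks cannot be long, so the lack of long gaps follows from the choice of window. The median distance from a peak to its nearest neighbour was larger in the run, at 655 bp against 518 bp for the other peaks. The interquartile range of that distance was 429 to 986 bp in the run and 186 to 2620 bp among the others. Every one of the 17 peaks had another within 5 kb, as did 81.4% of the other peaks of 3L. Within 1 kb the shares were 82.4% (14 of 17) and 64.0%. Among peaks of the arm that share their neighbourhoods these shares are not independent counts.

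The run stood alone on its lower side. The peak before it ended at 8775275, 590605 bp from peak 1, which made this stretch rank 3 by length among the 813 gaps of the arm. That peak was 368 bp wide, with a score of 7.90. The next peak on the upper side began at 9412652, after 18719 bp, and was 206 bp wide with a score of 9.02. This gap ranked only 161 among the 813. Farther on, a peak from 9415735 to 9416265 scored 17.6. Taken as peaks under 5 kb apart, the run was not cut by the limits of the rule. The outermost midpoints lay 6.15 and 2.27 kb inside them, and the nearest midpoints outside lay 585 and 16.8 kb beyond. With peaks under 20 kb apart joined, however, the region ran on to 9420149 and held 22 peaks.

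**Figure D3:**
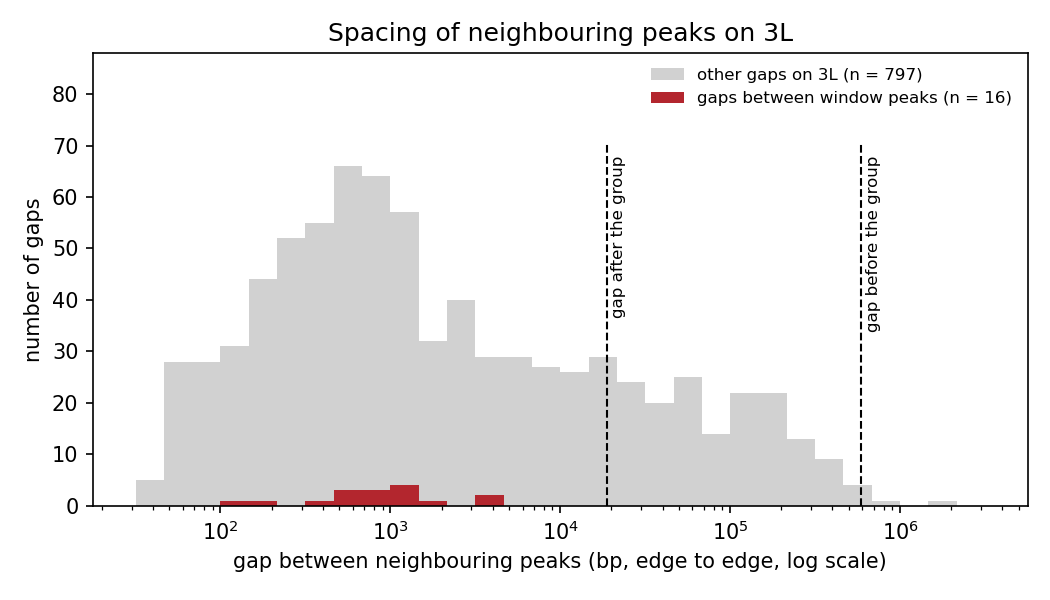
The horizontal axis is the gap between neighbouring peaks of 3L, edge to edge in bp on a log scale, and the vertical axis counts gaps. Grey bars are the other 797 gaps, red bars the 16 within the run, and dashed lines the gaps of 590605 and 18719 bp that bound it. The red bars lie between 110 and 4031 bp, while the grey ones reach 1585086 bp. Gaps inside a 36 kb window cannot be long, so the absence of long red gaps follows from the choice of window. The bounding gaps are counted among the grey ones.

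By count the window was among the denser ones of the arm. Of 680 windows of 36 kb tiled along 3L, 470 held no peak and 8, or 1.18%, held at least 17, this one included. The 36 kb before it held 0 peaks and the 36 kb after it held 5. In the other 7 dense windows, 3 of which adjoin or nearly adjoin between 17892001 and 18036000, peaks numbered 17 to 27 and covered 8.35 to 23.3 kb. The heat shock window covered 8.30 kb. Its median score of 11.2 compared with medians of 11.5 to 16.0 in those windows, and its highest score of 40.8 ranked 4 of 8. With peaks under 5 kb apart joined, the run was 1 region, of rank 5 by number of peaks among 265 regions of the arm, equal with 1 other. That other region, from 16138545 to 16161755, packed its 17 peaks into 23.2 kb and had a highest score of 21.9.

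Single peaks of the run scored from 7.60 to 40.8, within a range of 6.19 to 103.3 for the other peaks of the arm. Their widths were 229 to 1021 bp, against 201 to 9457 bp for the others. The median score was 11.2, against 12.2 for the other 797 peaks of 3L, of which 40.0% scored lower than the run's median. Of the 17, 4 scored above the upper quartile of the others, 16.4, and 5 scored below their lower quartile, 10.1. At least 20 was reached by 3 peaks of the run (17.6%, exact binomial 95% interval 3.80 to 43.4%) and by 14.3% of the others. The median width was 383 bp against 334 bp, and 4 peaks of the run (23.5%, 6.81 to 49.9%) against 14.6% of the others were wider than 700 bp. All of these intervals hold the share of the other peaks. They treat the peaks as independent draws, which neighbours in 1 call need not be, so they are no test. Across the 17 peaks the Spearman correlation of score with width was 0.84, and across the other 797 it was 0.58. Both are correlations across peaks of 1 call, in which score and width share the same reads.

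**Figure D4:**
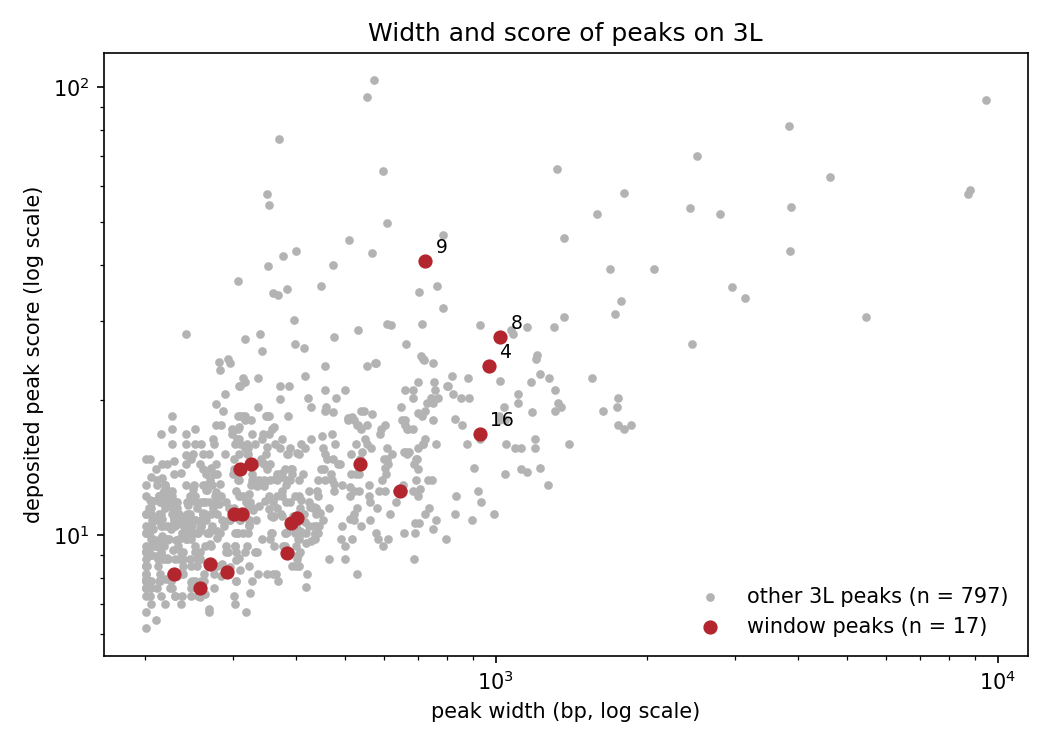
Each point is a peak of 3L, with its width in bp on the horizontal axis and its deposited score on the vertical axis, both on log scales. Red points are the 17 peaks of the run and grey points the other 797. The red points follow the spread of the grey ones from 229 to 1021 bp, with the 4 widest numbered and peak 9 the highest at 40.8.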

How the data were processed

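Chromatin from 2 ChIP and 2 input samples was measured by sequencing. Each peak's score and position are the authors' deposited values, called with MACS on FlyBase release 5 per the file headers, and what the score measures is not stated there. MACS2, CASAVA (1.7.0.2 and 1.7.0.3), BWA and the build BDGP5 are listed, without roles, in the submitters' processing notes. How the threshold and filters were set, and whether replicates were pooled, was not given in the sources used here.

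From the list were computed widths, edge-to-edge gaps, ranks, and, by matching scores shared by at least 10 peaks to a Poisson tail, a background, pileups and folds, with exact 95% intervals. Only the fitting step was tested on simulated data, with scores made by the same Poisson formula. Whether that formula holds for the deposited scores, on which every pileup and fold rests, was inferred from their repeated values alone. Windows of 36 kb were tiled from position 1 to the last peak of 3L, by midpoint. All peaks of the window are described, and the genes named are the 7 of the cluster, those between them and their neighbours. The members, lists and measures were chosen with earlier results of these data known. Planned descriptions of promoter motifs, protein identity and the related genes *l(2)efl* and CG14207 were not made, since sequence was not used here and peaks were not assigned to genes. The work used scipy 1.17.1, numpy 2.4.6, matplotlib 3.10.9 and pandas 2.3.3 under Python 3.11.15.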

Additional observations from a re-analysis of the deposited data

How the results depend on the processing

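No paired analysis was possible because there is 1 list for all libraries. For the same reason no library could be left out. Of 21 alternative values, 14 stayed close to the reported one (counts within 1.5 times, other values within their 95% interval). Several of these could not differ. Other rules for the window's edges, widening by 10 kb included, kept the same 17 peaks, with the nearest outside midpoint 16.8 kb beyond. A neighbour distance of 20 kb could not lower the share from 100%. At 1 kb the share was 82.4%, counted as close only because the interval ran from 80.5 to 100%. The 17 peaks became 8 in the top 50% and 4 in the top 25% of 3L peaks by score, and 8 regions when joined under 1 kb or 1 when joined under 5 kb. For the top 50%, the median width was 684.5 bp (383 bp for all) and the median gap 2100 bp (908.5 bp for all). For the top 25%, the median width was 948.5 bp. Each of these settings keeps fewer items by construction. With a tolerance of 0.015, 11 of the 17 peaks and 79.4% of the other 3L peaks lay on the score series. The unknown depth of the libraries limits every value here, and the intervals of folds cover counting error in the inferred pileup only.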
